A study of Mus with 2 samples.

Results

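The 5 globin genes Hba-a1, Hba-a2, Hbb-bs, Hbb-bt and Hbb-bh1 were followed through single-cell RNA libraries of sorted mouse hematopoietic stem cells (HSCs). They were taken by gene symbol, and all 5 were found among the 27998 genes counted. Each was measured in every kind of cell captured with the sort and in barcodes with 1 to 100 molecules, which are too shallow to hold a whole cell.

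Hemoglobin, the oxygen carrier of red cells, is built from a pair of α chains and a pair of β chains, each holding a heme group. Globin genes are switched on in maturing erythroid cells under Klf1 and Gata1 and come to make up most of the messenger RNA of a reticulocyte, the young red cell. HSCs are not known as hemoglobin producers, and globin RNA released from broken red cells is a common source of background in droplet libraries of marrow.

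Hba-a1 and Hba-a2 encode the adult α chain. On the RefSeq annotation of GRCm38.p6 they lie at chr11:32283672-32284486 and chr11:32296492-32297310, with 12005 bases between them. Hbb-bt and Hbb-bs encode the adult β chains and lie at chr7:103812524-103813923 and chr7:103826523-103827928, with 12599 bases between them. Hbb-bh1, a β-like gene of embryonic red cells, lies 13709 bases further on, at chr7:103841638-103843162. All 5 are protein coding. The members of each adult pair are near-identical copies, so the split of reads within a pair depends on how shared reads were counted and is uncertain. The libraries tag 1 end of each transcript and count molecules once by a unique molecular identifier (UMI), so UMI counts do not scale with transcript length. Levels compared between globin genes, α against β included, still depend on how shared reads were counted.

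HSCs were sorted as LSK FLT3- CD150+ CD48- cells from tibias and fibulas of mice aged 8 to 12 weeks. The control mice were Mx1-Cre Id2+/+ and the other group Mx1-Cre Id2Δ/Δ. Both carried Mx1-Cre, a recombinase driven by an interferon-responsive promoter, and per the study's methods poly(I:C), which induces it, was given before harvest. The deletion therefore reaches cells that respond to interferon, in marrow and elsewhere. Each genotype was 1 library of 1000 sorted cells pooled from 5 mice. The labels of the Id2Δ/Δ library contain a clause that names Id2+/+ mice as the source of its bones, whereas the title and the genotype given for it name the deleted allele, and the group was taken from these. The Id2+/+ library held 99 Id2 UMIs over all barcodes and the Id2Δ/Δ library held 4. A 3′ tag need not lie in the deleted segment, so this is no check of the allele itself.

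The libraries held 8612217 (Id2+/+) and 17140713 (Id2Δ/Δ) UMIs. After a limit on mitochondrial RNA, 333 and 625 cells were left, and 1 cell barcode occurred in both libraries. Clusters were named from marker genes other than globins: 27 and 40 cells were neutrophil-like (Elane, Mpo, S100a8), 27 and 136 were early erythroid-like (Klf1, Car1, Epor) and 15 and 32 were late erythroid-like (Alas2, Bpgm, Slc4a1). The remaining 264 and 417 cells, in 8 clusters, are called the stem cell fraction here. It is what the other names left over: 2 of its clusters, of 76 and 33 cells, were led by the platelet gene Pf4 and held 5 and 4 megakaryocyte and platelet markers and no stem cell marker, and 1 was high in the lymphoid genes Vpreb3 and Vpreb1. Its clusters were shared unevenly. A cluster with Dntt, Jun and Fos held 86 Id2+/+ cells and no Id2Δ/Δ cell outside the globin-dominated cells described below, one led by Cd34 held 17 and 121 cells and one led by Ccl5 held 37 and 89. The summed globin ratio and the share of cells high in Hbb-bt are also given by cluster, and other values of the fraction only over all its clusters. The sorted surface markers were present in this fraction, with Kit at 121 and 79.9 CPM (UMIs of a gene per 1000000 UMIs), Ly6a (Sca-1) at 88.0 and 64.8 and Slamf1 (CD150) at 27.9 and 32.0. Of the markers sorted against, Flt3 stood at 14.9 and 9.16 CPM and Cd48 at 10.7 and 17.9 CPM, compared with 73.6 and 92.2 CPM for Cd48 in neutrophil-like cells. Flt3 had no UMI in neutrophil-like or erythroid-like cells of either library. Median depth was 7081 and 9651 UMIs in the stem cell fraction, 17626 and 17986.5 in neutrophil-like cells, and 37549 and 41076 in early erythroid-like cells.

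With 1 library per genotype there was no replicate check, and no test between genotypes was run. Values are given as Id2+/+ and then Id2Δ/Δ. Intervals are 95% and cover counting error only. In summed counts, more cells with globin RNA and more globin RNA per cell cannot be told apart, so the values of single cells are given beside the sums.

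Globin RNA was found in every kind of cell, and the 10 profiles of cells and shallow barcodes spanned a wide range. The 5 genes together reached 899 (814 to 989) and 457 (409 to 509) CPM in neutrophil-like cells, a lineage that does not make hemoglobin. They reached 3846 (3730 to 3966) and 4533 (4477 to 4589) CPM in early erythroid-like cells. In late erythroid-like cells they reached 206589 and 145386 CPM. The stem cell fraction lay between neutrophil-like and early erythroid-like cells in the Id2Δ/Δ library, at 1829 (1790 to 1868) CPM. In the Id2+/+ library its summed level of 6707 (6598 to 6818) CPM stood above that of early erythroid-like cells. Because the kinds were named from other genes of the same cells, this order is a description.

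The high sum in the stem cell fraction came from very few cells. In 23 of 958 cells the globin genes held over 50% of all UMIs, between 57.9% and 92.4%. The next cell below had 8.92%, and no cell lay between. These globin-dominated cells numbered 9 in the Id2+/+ library (2.70% of cells, 1.24 to 5.07) and 14 in the Id2Δ/Δ library (2.24%, 1.23 to 3.73). Most sat in the late erythroid-like cluster, but 2 Id2+/+ cells and 1 Id2Δ/Δ cell had been placed in the stem cell fraction. Those 3 cells held 85.8% and 66.6% of its globin UMIs. Without globin-dominated cells the stem cell fraction had 956 (915 to 998) and 612 (590 to 635) globin CPM. This was 106% (95.7 to 118) and 134% (119 to 150) of the level in neutrophil-like cells, and the second interval lies above equality. Without the cells high in Hbb-bt, described below, it was 102% (91.7 to 114) and 112% (100.1 to 127). Leaving out the highest cells fixes the direction of that fall. The limit of 50% was set after the values had been seen, and the levels of globin-dominated cells are descriptions of a group chosen by its globin content.

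**Figure D1:**
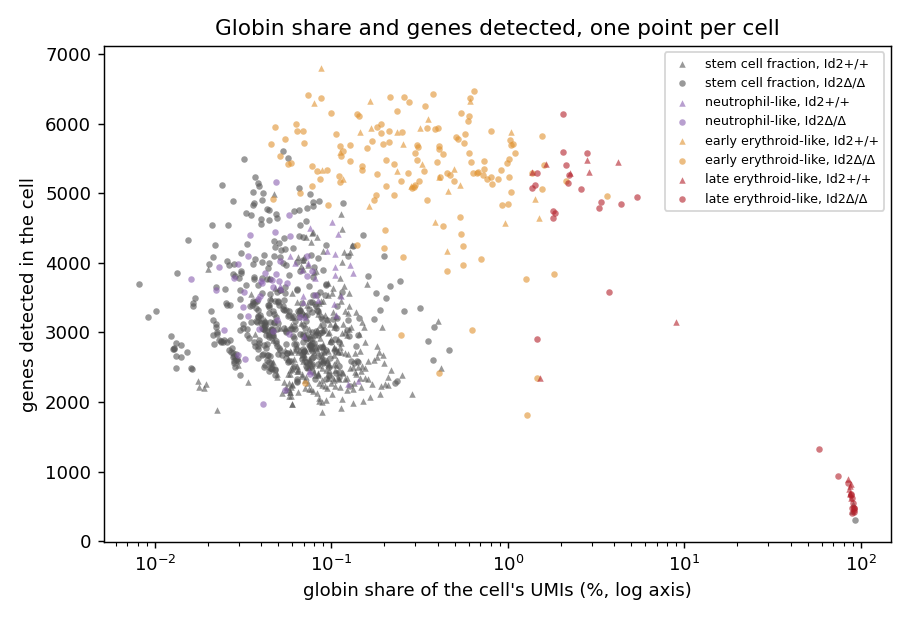
Globin share of each cell's UMIs (%, log axis) against the number of genes detected in the cell, 1 point per cell, by kind of cell and library. The 23 globin-dominated cells stand apart at 57.9% to 92.4% with 309 to 1329 genes, and the 7 cells without a globin UMI cannot be drawn on a log axis.

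Globin-dominated cells had few detected genes and high levels of genes of late red cell making. They had 309 to 1329 detected genes, compared with a median of 5309 and 5056 in the other late erythroid-like cells. The depths were unlike, with a median of 8406 and 8503 UMIs, most of them globin, compared with 37373.5 and 34877, and the gene counts were not set to a common depth. Alas2, which starts heme synthesis in erythroid cells, stood at 2095 (1792 to 2434) and 2791 (2500 to 3107) CPM. Bpgm, the red cell enzyme that makes the oxygen-affinity regulator 2,3-bisphosphoglycerate, stood at 1318 and 1475 CPM. Klf1, the erythroid transcription factor that switches on the adult β genes, had only 2 and 15 UMIs. Of the 15, 10 lay in 1 cell, the one with the lowest globin share and 1329 detected genes. The globin share of a cell ran from 84.5% through a median of 86.9% to 90.0% in the Id2+/+ library. In the Id2Δ/Δ library it ran from 57.9% through 89.3% to 92.4%. The ranges overlap.

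Within globin-dominated cells the balance of α and β RNA stood apart between the libraries. Hbb-bs was the most abundant gene, at 375116 and 444631 CPM. Hba-a1 stood at 228440 and 181165 CPM, Hba-a2 at 186030 and 136436 CPM and Hbb-bt at 81581 and 99865 CPM. Both α genes were lower and both adult β genes higher in the Id2Δ/Δ library, while the sum of all 5 had a ratio of Id2Δ/Δ to Id2+/+ of 0.989 (0.980 to 0.999). The ratio was 0.766 (0.755 to 0.778) for the α genes and 1.19 (1.18 to 1.21) for the β genes. Cell by cell, the α share of adult globin UMIs ran from 43.2% through a median of 47.4% to 50.2% in the 9 Id2+/+ cells. In the 14 Id2Δ/Δ cells it ran from 30.9% through 36.3% to 44.3%. The ranges of the libraries overlap only between 43.2% and 44.3%. All cells of a library went through the same capture, so these cells are not replicates of a genotype. Of 226 genes with enough counts in globin-dominated cells, 26.1% were at least 2-fold apart, and 1 of 5 members, Hbb-bh1, was among them.

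**Figure D2:**
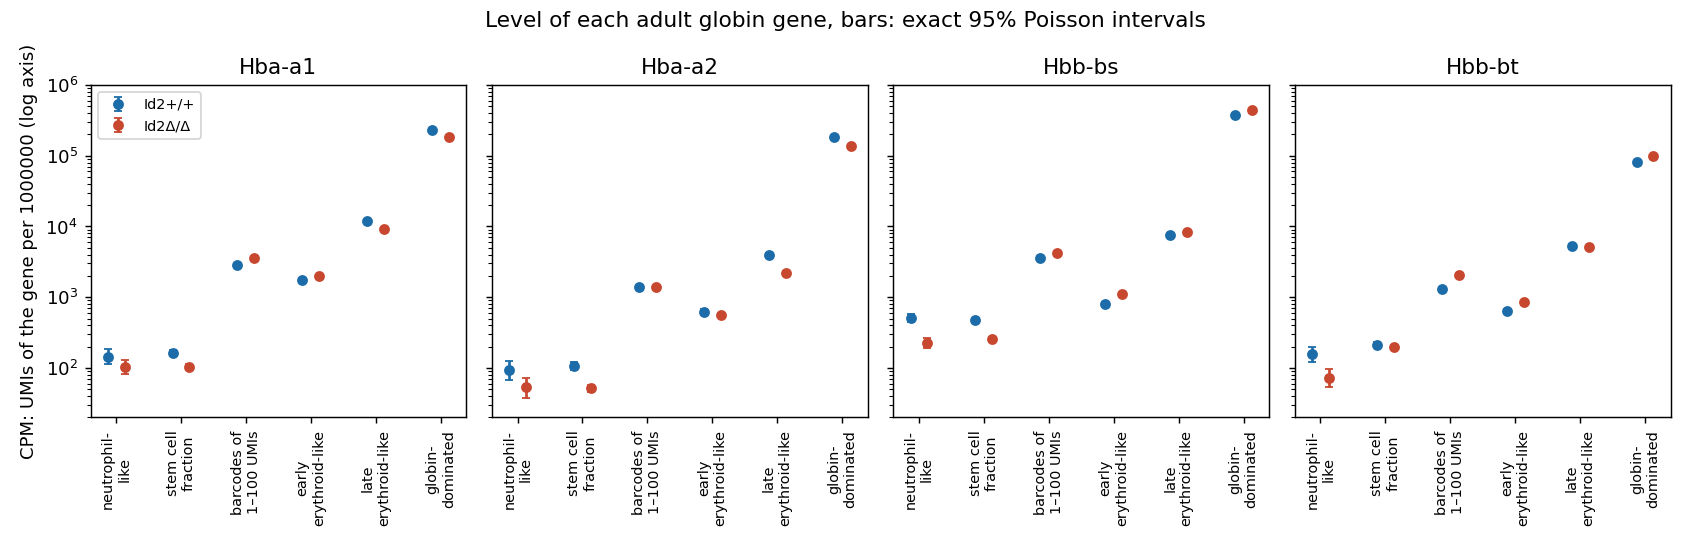
Level of each adult globin gene in CPM (log axis) in 6 kinds of cell or barcode, by library, with exact 95% Poisson intervals as bars. Globin-dominated cells have a place of their own and are left out of the stem cell fraction and of the late erythroid-like cells; the stem cell fraction and the neutrophil-like cells lie lowest for every gene.

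In early erythroid-like cells, which are committed to the red lineage but keep a rich transcriptome, Hba-a1 was the leading globin gene. It stood at 1769 (1690 to 1850) and 2026 (1989 to 2063) CPM. Hbb-bs followed at 810 (757 to 866) and 1095 (1068 to 1123) CPM. Hbb-bt stood at 642 (595 to 692) and 849 (825 to 874) CPM and Hba-a2 at 625 (578 to 674) and 562 (543 to 582) CPM. The intervals of Hbb-bt and Hba-a2 overlap in the Id2+/+ library, and in the Id2Δ/Δ library those of all 4 genes lie apart. Globins took between 0.0800% and 1.49% of the UMIs of an Id2+/+ early erythroid-like cell, with a median of 0.317%. In Id2Δ/Δ cells the share ran from 0.0453% to 3.66%, with a median of 0.311%. Single cells of the libraries overlapped from 0.0800% to 1.49%.

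The late erythroid-like cells outside the globin-dominated group kept this order of the genes, and globin-dominated cells had another. In these late cells Hba-a1 led at 11871 and 9263 CPM. There Hbb-bs stood at 7505 and 8329 CPM, Hbb-bt at 5303 and 5071 CPM and Hba-a2 at 3913 and 2211 CPM. In globin-dominated cells Hbb-bs came first and Hbb-bt last of the 4 adult genes. Hba-a1 made up 73.9% (72.1 to 75.6) and 78.3% of the α UMIs in early erythroid-like cells. It made up 55.1% (54.6 to 55.6) and 57.0% (56.5 to 57.5) in globin-dominated cells. Hbb-bt made up 44.2% (41.7 to 46.7) and 43.7% of the adult β UMIs in early erythroid-like cells and 17.9% (17.5 to 18.3) and 18.3% (18.0 to 18.6) in globin-dominated cells.

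When erythroid-like cells, together with the 3 globin-dominated cells of the stem cell fraction, were placed by their globin share instead of by cluster, the makeup did not move in even steps. Hbb-bt was 27.9% (22.4 to 33.9) and 43.3% (40.1 to 46.5) of adult β UMIs in cells with under 0.2% globin, 9 and 45 cells, and Hba-a1 was 61.4% and 73.3% of α UMIs there. Hbb-bt was 47.8% and 44.3% of adult β UMIs in cells with 0.2% to 0.5% globin, and 42.5% and 49.3% in those with 0.5% to 1%. It was 42.2% (40.6 to 43.9) and 38.1% (37.2 to 38.9) in cells with 1% to 10%. The Hba-a1 share of α UMIs over these 3 steps was 73.5% and 78.8%, then 76.5% and 78.2%, then 75.4% and 80.1%. Both shares stood lower in the globin-dominated cells than in any other step, with no cell in between. Over the same cells Alas2 went from 0 and 6.19 CPM in cells with under 0.2% globin to 67.6 and 83.1 CPM in cells with 1% to 10%. Klf1 lay between 509 and 723 CPM in all of these bins.

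**Figure D3:**
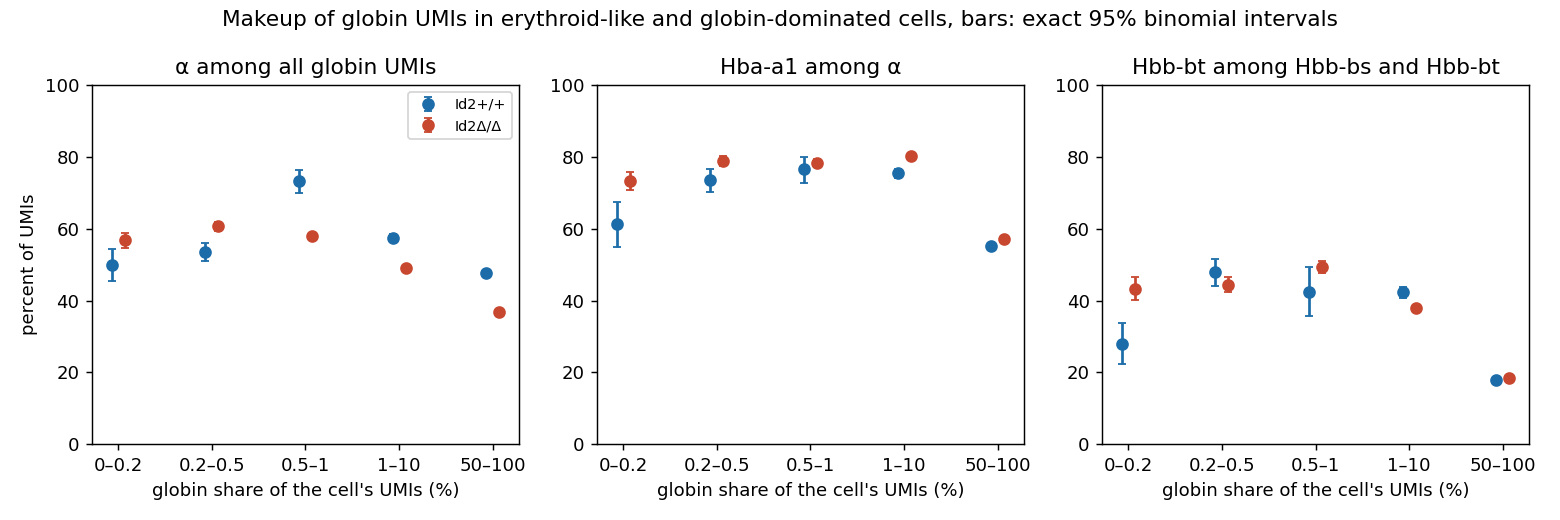
Makeup of the globin UMIs (percent of UMIs) in erythroid-like cells and all 23 globin-dominated cells, 3 of them placed in the stem cell fraction, binned by the globin share of their UMIs (%), by library, with exact 95% binomial intervals as bars. The Hba-a1 share of α and the Hbb-bt share of adult β lie lowest in the globin-dominated bin of 50 to 100%, at 55.1% and 57.0% and at 17.9% and 18.3%; the Id2+/+ bin of 0.5 to 1% holds 3 cells.

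Single erythroid-like cells differed widely in how their adult β UMIs were split between Hbb-bs and Hbb-bt, a split that shared reads leave uncertain. Among early erythroid-like cells with at least 20 adult β UMIs, the Hbb-bt share ran from 12.2% through a median of 44.1% to 74.4% in the Id2+/+ library. In the Id2Δ/Δ library it ran from 14.4% through 45.1% to 85.4%. The variance among cells was 5.71 and 11.2 times what binomial counting alone gives. For the Hba-a1 share of α UMIs it was 3.16 and 4.18 times, around medians of 72.9% and 77.8%. The Hbb-bt share covered a narrower range in globin-dominated cells, from 15.04% to 23.0% and from 14.4% to 25.1%. There its variance was 20.2 and 36.0 times the binomial one, which is smaller in cells with so many globin UMIs.

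In the stem cell fraction, 4 of 5 globin genes had UMIs and Hbb-bh1 had none once globin-dominated cells were left out. Hbb-bs led at 470 (441 to 500) and 256 (242 to 271) CPM. Hbb-bt stood at 215 (195 to 235) and 201 (188 to 214) CPM, Hba-a1 at 165 (148 to 183) and 104 (94.5 to 113) CPM, and Hba-a2 at 107 (93.4 to 122) and 51.4 (45.1 to 58.4) CPM. The median cell had 3 Hbb-bs UMIs and 1 Hba-a1 UMI in both libraries. The order of the genes was not that of early erythroid-like cells, where Hba-a1 led. The α share of globin UMIs was 28.4% (26.4 to 30.4) and 25.3% (23.7 to 27.0). It was 26.5% (22.3 to 31.03) and 34.3% (29.2 to 39.7) in neutrophil-like cells and 62.2% and 57.1% in early erythroid-like cells. Without the stem cell fraction cells high in Hbb-bt, described below and chosen by that β gene, it was 30.2% (28.1 to 32.3) and 30.6% (28.6 to 32.5).

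Set against neutrophil-like cells of the same library, 3 of the adult genes were at about the same level. As a percentage of the neutrophil-like level, the stem cell fraction had 113% (87.1 to 150) and 100% (78.5 to 130) for Hba-a1. It had 115% (82.6 to 163) and 95.8% (68.1 to 138) for Hba-a2 and 93.1% (80.6 to 108) and 113% (95.7 to 133) for Hbb-bs. All 6 intervals include equality. Hbb-bt stood at 138% (107 to 179) and 276% (209 to 371), and neither of its intervals does. These values rest in part on 8 and 31 cells with more than 6 Hbb-bt UMIs, described below. Without them the percentages were 108% (83.4 to 141) and 140% (105 to 190), a fall that leaving out the highest cells fixes in direction.

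Nearly every cell of the stem cell fraction carried globin RNA, and so did neutrophil-like cells. With each cell thinned to 5800 UMIs, 99.5% (97.2 to 99.99) of Id2+/+ and 95.2% (92.7 to 97.0) of Id2Δ/Δ stem cell fraction cells had at least 1 globin UMI. Without thinning the shares were 100% and 98.3%. Thinned neutrophil-like cells had one in 100% (87.2 to 100) and 90.0% (76.3 to 97.2). With nearly all cells at 1 UMI or more in both kinds, these shares do not separate the stem cell fraction from a lineage that does not make hemoglobin. Elane, a neutrophil granule protease chosen as a gene that other lineages should lack, stood at 219 (200 to 240) and 68.0 (60.7 to 75.9) CPM in the stem cell fraction. It stood at 203 and 61.3 CPM in early erythroid-like cells and at 21550 and 24639 CPM in neutrophil-like cells. Elane in cells of other lineages was thus lower in the Id2Δ/Δ library, as the globin level in the stem cell fraction was, and its part in the globin values was not tested.

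A small number of cells carried many Hbb-bt UMIs. The highest Hbb-bt count of any neutrophil-like cell was 6. In the stem cell fraction 8 of 262 Id2+/+ cells (3.05%, 1.33 to 5.93) and 31 of 416 Id2Δ/Δ cells (7.45%, 5.12 to 10.4) had more. Their counts ran from 7 through a median of 11 to 33 in the Id2+/+ library and from 7 through 16 to 31 in the Id2Δ/Δ library. Just inside the limit, 2 and 1 cells had 7 UMIs, and just outside, 4 and 3 cells had 6. These cells held 24.2% and 53.8% of all Hbb-bt UMIs of the fraction. By the same measure Hba-a1 exceeded its neutrophil-like maximum in 1 cell of each library, and Hba-a2 and Hbb-bs in none. The limit was chosen after the values had been seen.

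**Figure D4:**
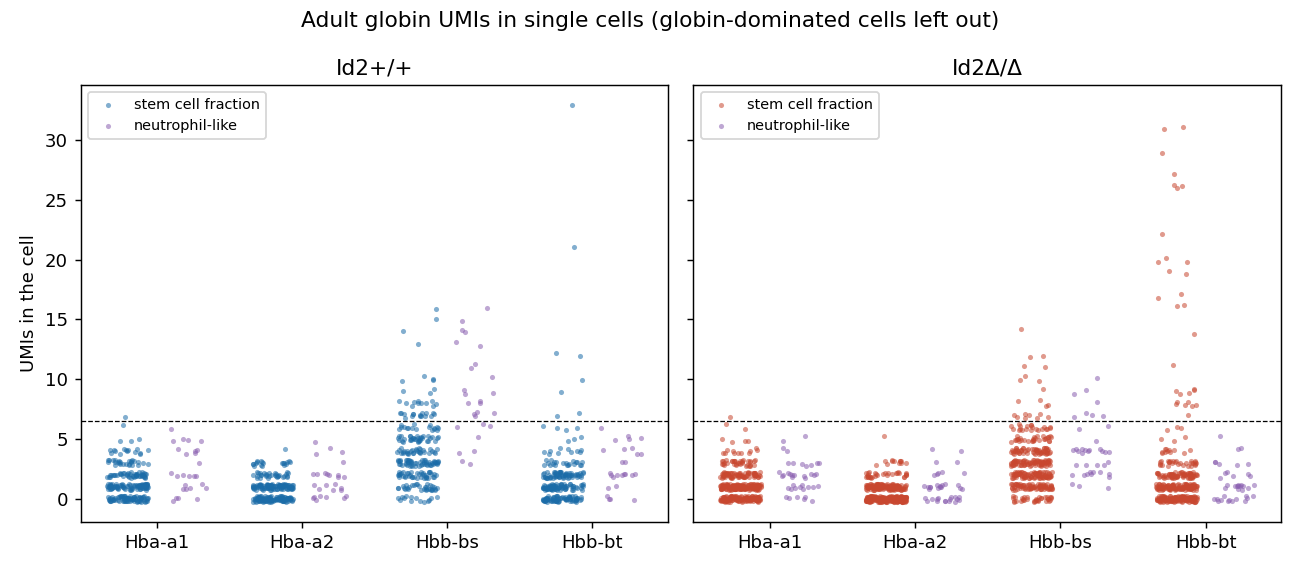
UMIs of each adult globin gene in single cells of the stem cell fraction and neutrophil-like cells, by library, with points spread sideways for sight and globin-dominated cells left out. The dashed line lies between 6 and 7 UMIs, the limit for Hbb-bt; 8 Id2+/+ and 31 Id2Δ/Δ cells of the stem cell fraction lie above it for Hbb-bt, up to 33 UMIs.

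The other adult globins showed no difference of that size in these cells. The mean cell had 13.9 and 16.4 Hbb-bt UMIs, compared with 1.37 and 1.13 in the other cells of the fraction. Its Hbb-bs count was 3.38 and 3.61, compared with 3.84 and 2.82, and per UMI it stood at 397 and 267 CPM, compared with 472 and 255. Its Hba-a1 count was 0.625 and 1.19, compared with 1.36 and 1.16, and its Hba-a2 count was 0.25 and 0.613, compared with 0.890 and 0.577.

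Other erythroid genes lay on both sides of the remaining cells in the cells high in Hbb-bt. Alas2 had 1 and 4 UMIs in them, at 14.7 (0.372 to 82.0) and 9.54 (2.60 to 24.4) CPM, compared with 7.75 and 4.69 CPM in the other cells. It was at 0 in 87.5% and 87.1% of them and in 94.1% and 94.8% of the others. Gata1 stood at 29.4 (3.56 to 106) and 26.2 (13.1 to 47.0) CPM, compared with 46.5 (37.6 to 56.8) and 54.6 (47.8 to 62.1) CPM. The early erythroid markers summed to 2471 (2112 to 2874) and 1785 CPM, compared with 2224 and 2149 CPM in the other cells. Klf1 stood at 14.7 (0.372 to 82.0) and 26.2 CPM in them and at 46.0 and 37.0 CPM in the other cells. The 11 late erythroid markers measured, none of them a globin, summed to 265 and 356 CPM, compared with 421 and 343 CPM. Hlf, a transcription factor of HSCs, stood at 103 (41.4 to 212) and 95.4 CPM, compared with 137 and 85.8 CPM. Such cells occurred in all 8 clusters of the fraction. They were 2 of 37 and 12 of 89 cells in the cluster led by Ccl5 and Vpreb3, and 1 of 15 and 7 of 58 in the cluster led by Cd74 and H2-Aa. In the cluster led by Cd34 they were 1 of 17 (5.88%) and 7 of 121 (5.79%), and in that led by Meg3, which held 8 stem cell markers, 2 of 61 (3.28%) and 1 of 31 (3.23%). In the cluster of 86 Id2+/+ cells they were 2. The libraries thus stood close together in the clusters led by Cd34 and by Meg3, at counts of 1 to 7 cells, and the part of the mix of clusters in the share over the whole fraction was not tested. Without the 2 clusters led by Pf4 the share was 8 of 229 cells (3.49%, 1.52 to 6.77) and 28 of 340 (8.24%, 5.54 to 11.7).

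Depth differed between the groups compared. Median depth was 8267 and 11601 UMIs in the cells high in Hbb-bt and 7052 and 9513 in the others. With each cell thinned to 5800 UMIs, 4 of 196 Id2+/+ cells (2.04%, 0.559 to 5.14) and 18 of 416 Id2Δ/Δ cells (4.33%, 2.58 to 6.75) still had at least 7 Hbb-bt UMIs. Thinned neutrophil-like cells reached 3. The intervals of the libraries overlap with and without thinning.

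Barcodes with 1 to 100 UMIs held more globin per UMI than the stem cell fraction. There were 177395 and 254023 of them, and the 5 genes reached 9123 (9030 to 9218) and 11320 (11214 to 11427) CPM. Hbb-bs led at 3598 and 4287 CPM, followed by Hba-a1 at 2813 and 3578 CPM. Hba-a2 stood at 1387 (1351 to 1424) and 1395 (1358 to 1433) CPM and Hbb-bt at 1324 (1289 to 1361) and 2060 (2015 to 2106) CPM. Hba-a2 and Hbb-bt overlap in the Id2+/+ library. The globin level of the stem cell fraction without globin-dominated cells was 10.5% and 5.41% of that of these barcodes. The percentage was lowest for Hba-a1, at 5.85% and 2.89%, and highest for Hbb-bt, at 16.2% and 9.76%. The place of Hbb-bt rests on the cells high in that gene. Without them it stood at 12.7% and 4.95%, below Hbb-bs at 13.1% and 5.94%. Hba-a1 made up 67.0% and 72.0% of the α UMIs in these barcodes, which lies between early erythroid-like and globin-dominated cells.

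The globin share of UMIs was nearly flat over the depth of shallow barcodes. It lay between 0.891% and 0.957% up to 300 UMIs in the Id2+/+ library and between 1.02% and 1.18% in the Id2Δ/Δ library. Above 1000 UMIs and below the limit for cells it stood at 1.63% and 2.05%. In that range 1 Id2+/+ barcode with over 50% globin held 2965 of 4089 globin UMIs. In the Id2Δ/Δ library 7 such barcodes held 17618 of 20867. The limit for cells thus left out barcodes with over 50% globin.

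**Figure D5:**
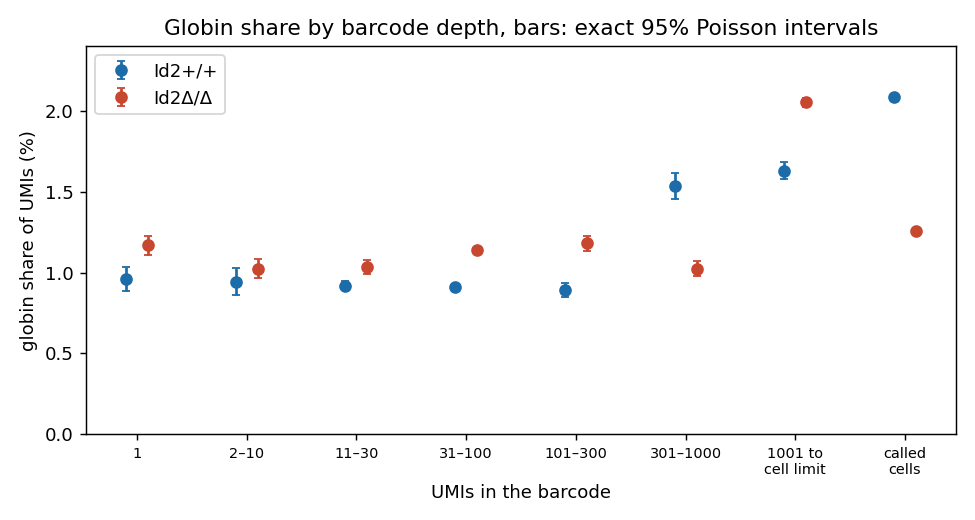
Globin share of UMIs (%) by the number of UMIs in the barcode, by library, with exact 95% Poisson intervals as bars; the deepest bin holds the called cells. The share stays near 0.891% to 0.957% (Id2+/+) and 1.02% to 1.18% (Id2Δ/Δ) up to 300 UMIs and stands at 2.09% and 1.25% in called cells.

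The ratio of Id2Δ/Δ to Id2+/+ was not the same in every kind of cell. In the stem cell fraction without globin-dominated cells it was 0.640 (0.605 to 0.678) for the sum of the 5 genes. That ratio is per UMI, and depth differed, with a median of 7081 and 9663 UMIs per cell. Globin UMIs per cell stood closer together, with a mean of 7.78 and 6.89 and a median of 7 and 6. The ratio of CPM was 0.629 (0.547 to 0.724) for Hba-a1, 0.481 (0.400 to 0.579) for Hba-a2, 0.545 (0.501 to 0.593) for Hbb-bs and 0.936 (0.837 to 1.05) for Hbb-bt. Without the 8 and 31 cells high in Hbb-bt, chosen by that gene, its ratio was 0.607 (0.526 to 0.701). The sum was lower in the Id2Δ/Δ library in each of the 7 clusters with cells of both, at ratios from 0.533 to 0.758, and without the 2 clusters led by Pf4 the ratio was 0.688. In neutrophil-like cells the sum stood at 0.509 (0.439 to 0.589) and Hbb-bt at 0.468 (0.322 to 0.677). Of 10458 genes in the fraction without globin-dominated cells, 5.21% were at least 2-fold apart, and 1 of 4 members tested, Hba-a2, was. Of the genes apart 16.9% were higher in the Id2Δ/Δ library. With globin-dominated cells left in, 5.22% of genes and 4 of 4 members were, and the ratio of the sum was 0.273. That value was 0.181 without the cell with most globin UMIs in each library, and the direction turned to 1.03 with no limit on mitochondrial RNA, where the fraction held 1 and 2 globin-dominated cells in place of 2 and 1. Without globin-dominated cells the ratio was 0.640 there too. The median gene stood at a ratio of 0.9495 without them.

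In early erythroid-like cells the sum had a ratio of 1.18 (1.14 to 1.22). Hba-a1 stood at 1.15 (1.09 to 1.20), Hba-a2 at 0.900 (0.827 to 0.980), Hbb-bs at 1.35 (1.26 to 1.45) and Hbb-bt at 1.32 (1.22 to 1.44). Over the 8607 genes tested 6.89% were at least 2-fold apart and 0 of 4 members were. This direction turned under other settings. At a finer clustering the early group held 35 and 156 cells, 1 Id2Δ/Δ cell of them globin-dominated, and the ratio was 0.873. At a coarser one it held 27 and 103 cells and the ratio was 1.13, or 0.760 without 1 globin-dominated Id2Δ/Δ cell. With both kinds pooled and globin-dominated cells left out, the level was 8534 CPM over 35 cells and 6708 CPM over 155, a ratio of 0.786 (0.770 to 0.803). Early cells were 64.3% (48.0 to 78.4) and 81.0% (74.2 to 86.6) of the erythroid-like cells, globin-dominated ones included, with overlapping intervals, and 8.11% (5.41 to 11.6) and 21.8% (18.6 to 25.2) of all cells.

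In late erythroid-like cells the sum had a ratio of 0.704 (0.697 to 0.711), and 0.870 (0.846 to 0.894) without the globin-dominated cells. Other settings changed which cells the late group held. With globins left in the clustering it held 9 and 13 cells, and at a finer clustering, or clustered again without 3 cells marked as doublets, 7 and 12. All of these were globin-dominated, so the ratios of 1.01 and 1.02 found there describe another group than the 15 and 32 cells here. A coarser clustering gave 15 and 64 late cells and a ratio of 0.259, or 0.513 without the globin-dominated cells. Over the 15 and 32 cells here, Hba-a2 stood at 0.4997 (0.489 to 0.511) and Hbb-bs at 0.844 (0.832 to 0.856). Without globin-dominated cells Hba-a2 stood at 0.565 (0.521 to 0.613), and Hbb-bs turned direction to 1.11 (1.05 to 1.17). Among the 4762 genes tested 7.85% were at least 2-fold apart, and 2 of 5 members were, Hba-a2 and Hbb-bh1. Both calls include globin-dominated cells. Without them Hba-a2 was less than 2-fold apart, and Hbb-bh1 had only 3 and 1 UMIs. Hba-a2 was the adult gene with the lowest ratio in early, late and globin-dominated cells and in the shallow barcodes.

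In barcodes with 1 to 100 UMIs the sum had a ratio of 1.24 (1.22 to 1.26). Hbb-bt stood at 1.56 (1.502 to 1.61), Hba-a1 at 1.27 (1.24 to 1.30), Hbb-bs at 1.19 (1.16 to 1.22) and Hba-a2 at 1.01 (0.968 to 1.04). There 14.0% of 9992 genes were at least 2-fold apart and 0 of 4 members were. The median gene stood at -0.34 on the log2 scale in these barcodes, and of the genes apart 4.37% were higher in the Id2Δ/Δ library. Scaled so that the median gene is equal, the ratio of the sum was 1.57 and 28.1% of the genes apart were higher. In globin-dominated cells the median gene stood at 0.10 on the log2 scale. In late erythroid-like cells 63.6% of the genes apart were higher, and 48.8% with the other scaling.

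Hbb-bh1 was close to absent outside the globin-dominated cells. It had 33 UMIs in the whole Id2+/+ library and 21 in the Id2Δ/Δ library, and 26 and 10 of these lay in globin-dominated cells. There it stood at 320 (209 to 469) and 83.3 (40.0 to 153) CPM, a ratio of 0.260 (0.112 to 0.557). No UMI was found in 262 and 416 stem cell fraction cells without globin-dominated cells, which allows a level of up to 1.41 and 0.640 CPM (3 UMIs). Of the other globin genes, the embryonic Hba-x had 1 and 7 UMIs in whole libraries and Hbb-y had 4 and 2. The θ-globin genes Hbq1b and Hbq1a had 22 and 64 and 0 and 5. Hbb-bh2, Mb, Ngb and Cygb had none, so they were not detectable at this depth. Hbq1b stood at 2.51 (1.20 to 4.61) and 5.46 CPM in the shallow barcodes, on 10 and 21 UMIs, a ratio of 2.18 (0.981 to 5.17) whose interval includes 1.

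The genes whose pattern over the 10 profiles was most like the summed globin level were sought among 4314 genes. Alas2 had a Pearson r of 0.967 and Bpgm one of 0.966, and others of the 10 most alike were Smox (0.946), Fam117a (0.945), Slc25a37 (0.945), Rsad2 (0.941), Ccnd3 (0.940), March2 (0.938) and Epb41 (0.936). Of these, Slc25a37 is the mitochondrial iron importer of erythroid cells and Epb41 is the membrane skeleton protein 4.1. The profiles share libraries and depth, and late erythroid-like cells lie far above the others, so r is a description. Alas2 stood at 501 and 503 CPM in late erythroid-like cells and at 76.5 and 42.1 CPM in shallow barcodes.

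Genes of heme synthesis, iron import and the red cell membrane formed a list of 24, of which 23 were in the files. In early erythroid-like cells 22 were tested, none was at least 2-fold higher or lower, beside 6.89% of all genes, and their median ratio was 1.19 against 0.998 over all genes. Alad, an enzyme of heme synthesis, stood at 417 and 560 CPM. In the stem cell fraction without globin-dominated cells 22 were tested, with 0 apart in either direction, beside 5.21% of all genes, and a median ratio of 0.836 against 0.9495. In late erythroid-like cells 21 were tested, with 0 apart, beside 7.85% of all genes, and a median of 0.983 against 1.09. In globin-dominated cells 12 were tested and 6 were higher, among them Alad, Slc25a37, Blvrb, Prdx2 and Slc4a1, with a median of 2.03 against 1.10, where 44 of all 226 genes were higher and 26.1% were apart. The UMIs behind these were few, as for Alad with 1 and 19 and the antioxidant enzyme gene Prdx2 with 37 and 123. In shallow barcodes 1 of 23, Alas1, was lower, at 140 and 65.8 CPM, a share below the 14.0% of all genes apart there, with a list median of 1.03 against 0.791.

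Regulators of globin transcription and translation formed a list of 16. In early erythroid-like cells all 16 were tested and 1 was apart, Gata2, a factor of stem and progenitor cells, at 21.5 (13.6 to 32.3) and 8.17 CPM, which is near the 6.89% of all genes. Their median ratio was 1.005. Klf1 stood at 581 (536 to 628) and 644 (624 to 666) CPM, and Bcl11a, a repressor of embryonic β-like genes, at 123 and 143 CPM. In the stem cell fraction without globin-dominated cells none of the 16 was apart, beside 5.21% of all genes, with a median of 0.806 against 0.9495. In late erythroid-like cells 1 of 13, Zbtb7a, another repressor of embryonic globins, was higher, at 66.2 (41.0 to 101.2) and 145 CPM, near the 7.85% of all genes apart there. In the shallow barcodes 1 of 16, Gata2, was lower, at 88.3 and 41.6 CPM, also below the 14.0% of all genes, with a list median of 0.826 against 0.791.

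The cell barcode found in both libraries belonged to an Id2+/+ cell of the stem cell fraction with 7 globin UMIs and to an Id2Δ/Δ neutrophil-like cell with 9. Neither was globin-dominated or high in Hbb-bt, so counts of those groups do not rest on it.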

How the data were processed

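HSCs of both genotypes were captured on the 10x Genomics Chromium. The submitters' processing notes name Cell Ranger 2.2.0 and the mm10 build. The authors deposited raw UMI counts per gene and barcode, without normalization or a call of cells. How reads shared by near-identical genes were treated is not given in the sources used here. A barcode was called a cell at 10% of the 99th percentile UMI count of the 1000 deepest barcodes. This limit was 4393 UMIs in the Id2+/+ library and 6177 in the Id2Δ/Δ library. It left 349 and 632 cells, holding 47.7% and 69.3% of UMIs, where the labels give 383 and 686 analyzed cells. Cells with 10% or more mitochondrial UMIs were removed. No doublets were removed; Scrublet marked 2 of 333 and 1 of 625 cells, too few to show that the caller worked.

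Cells were clustered together in Scanpy 1.11.5 without the globin genes (counts scaled to 10000 per cell, 2000 variable genes, 20 components, 15 neighbours, Leiden resolution 1, seed 0). A cluster took the name of a cell type if 4 or more of that type's markers were detected in 25% or more of its cells at a log2 fold of at least 1 and the stem cell markers averaged a log2 fold below 0. The stem cell list and the megakaryocyte and platelet list named no cluster: every cluster left over went to the stem cell fraction, the 2 led by Pf4 included. CPM were computed from summed counts, with exact Poisson limits. Shares have exact Clopper-Pearson intervals, and ratios the exact conditional interval, which was checked on simulated counts. Genes reaching 20 UMIs in both libraries combined were compared, and a gene 2-fold apart was counted without a test. Thinning used 5800 UMIs, and 66 Id2+/+ cells of the stem cell fraction outside the globin-dominated group were shallower and left out, against 0 Id2Δ/Δ cells. Genes named are the 5 members, the genes of the lists, cell markers, and the 10 genes with the highest Pearson r of log2(CPM + 10) with the summed globin level, among genes with at least 100 UMIs over the profiles and 50 CPM in one. Some genes that this rule names are not reported here. Members and lists were chosen with earlier results of these data known. Alternatives covered the cell call, mitochondrial limit, clustering, doublets, scaling, single cells left out and thinning.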

Additional observations from a re-analysis of the deposited data

Results flagged for a closer look

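The ratio of Id2Δ/Δ to Id2+/+ globin level lay on opposite sides of 1 in different kinds of cell. It was 0.509 (0.439 to 0.589) in neutrophil-like cells and 0.640 (0.605 to 0.678) in the stem cell fraction without globin-dominated cells. It was 1.18 (1.14 to 1.22) in early erythroid-like cells and 1.24 (1.22 to 1.26) in barcodes with 1 to 100 UMIs. With 1 library per genotype this difference was not tested, and the early erythroid-like value turned direction under other settings.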

How the results depend on the processing

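Ratios are Id2Δ/Δ over Id2+/+ for the summed globin level, unless another quantity is named. With a fixed limit of 1000 UMIs and 500 genes for cells, the stem cell fraction stood at 0.639, early erythroid-like cells at 0.881 and late ones at 0.989, whereas with no mitochondrial limit they stood at 1.03, 1.004 and 0.633. With globins left in the clustering they stood at 0.640, 0.873 and 1.01. At resolution 0.5 the values were 0.517, 1.13 and 0.259, and at resolution 2 and without the cells Scrublet marked, early cells stood at 0.873 and late ones at 1.02. Cells moved between the kinds: with globins in the clustering, at resolution 2 and without the Scrublet cells, late cells were globin-dominated only (9 and 13, or 7 and 12), and early cells (35 and 156) stood at 0.786 without 1 globin-dominated cell. At resolution 0.5, early cells without 1 such cell stood at 0.760 and late ones without such cells at 0.513. With no mitochondrial limit the stem cell fraction held 1 and 2 globin-dominated cells in place of 2 and 1, and without such cells its ratio was 0.639 to 0.640 under each of these 6 settings. Leaving such cells out was chosen after seeing the data. As a mean over cells the 3 kinds stood at 0.366, 1.14 and 0.863, and without the cell with most globin UMIs in each library at 0.181, 1.23 and 0.744. Median-of-ratios scaling gave 0.286 in the stem cell fraction, 0.649 in late cells and 1.57 in shallow barcodes. CPM over UMIs other than globin gave 0.653 in late cells, and barcodes of 1 to 10 UMIs gave 1.16. Chosen after seeing the data, leaving out globin-dominated cells gave 0.640 in the stem cell fraction, or 0.688 with the 2 clusters led by Pf4 also left out, and 0.870 in late cells, and early and late cells together gave 0.786.

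As a percentage of the level in barcodes of 1 to 100 UMIs, the whole stem cell fraction stood at 73.5% and 16.2%. It stood at 70.5% and 16.6% against barcodes of 1 to 10 UMIs, at 9.69% and 4.46% for the median cell, and at 37.0% and 5.41% without the cell with most globin UMIs. With globins in the clustering, or without globin-dominated cells, it stood at 10.5% and 5.41%. The share of stem cell fraction cells with a globin UMI was 100% and 98.3% without thinning. In Id2Δ/Δ cells it was 81.3% for at least 2 UMIs and 97.8% at the deeper thinning. The α share of 43.2% and 31.1% became 39.0% and 25.3% without the cell with most globin UMIs and 28.4% and 25.3% without globin-dominated cells. The share of Id2Δ/Δ cells high in Hbb-bt was 4.33% after thinning and 4.57% for at least 10 UMIs, alternatives chosen after seeing the data. Genes at least 2-fold apart in the stem cell fraction numbered 546, and 1941 with every gene of at least 1 UMI. Of 80 values computed under alternatives, 22 moved by less than the counting error or, for counts of genes, by less than 1.5 times. No paired analysis was possible because there is a single library per genotype.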
